A study of Mus musculus with 54 samples.

Results

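The nuclear genes that encode the subunits of mitochondrial complex I were examined as a family of 40 genes, among 28042 genes that passed the same filter on low counts. Members were chosen by mouse symbol, as Ndufa, Ndufb, Ndufc, Ndufs, Ndufv or Ndufab followed by a number, without the assembly factors (Ndufaf), and with over 2 counts in 3 or more libraries. The symbols matched 42 identifiers, of which the transcribed pseudogene Ndufa11b, with more than 2 counts in 2 libraries, and a second identifier of Ndufb8, with 0 counts, did not pass. Each of the 40 members had more than 2 counts in all 54 libraries, so no member passed only through a group in which it was high. Among them, Ndufa12-ps is an annotated pseudogene of Ndufa12, and Ndufb4c is a copy of Ndufb4. Reads of these pairs may be split between near-identical sequences, so their values are uncertain. The subunit gene Ndufb1 was not matched to an identifier and is named only.

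Complex I, NADH:ubiquinone oxidoreductase, is the entry point of electrons from NADH into the respiratory chain of the inner mitochondrial membrane. Its NADH-binding (N) module takes up the electrons, its ubiquinone-binding (Q) module passes them to ubiquinone, and its membrane arm pumps protons. A few core subunits carry the cofactors, the many supernumerary subunits around them serve assembly and stability, and the hydrophobic core of the membrane arm is encoded in mitochondrial DNA. Tissues with a high and constant demand for ATP, such as heart muscle, are rich in the complex.

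The question was whether Cmpd60, an inhibitor of the histone deacetylases HDAC1 and HDAC2, changed the RNA level of these genes in old tissues and in a dementia model. Male BL6 mice of about 20 months were injected intraperitoneally every day for 14 days with 22.5 mg/kg Cmpd60 or with its solvent (vehicle). RNA was sequenced from brain (6 Cmpd60 and 6 vehicle libraries), heart (5 and 6) and kidney (6 and 5). Male APPSWE-1349 mice, which carry a transgene for human amyloid precursor protein with the Swedish mutation on a BL6 background, were treated in the same way at 6 to 7 months. They gave 4 Cmpd60 and 5 vehicle brain libraries, and their control littermates, AD-control in the labels, gave 5 and 5. Library s139 of an APPSWE mouse is labelled vehicle but stands under the compound in a table of the study, so it was kept out of both APPSWE groups and its values are given apart. For all 11 kidney libraries, the treatment field of the labels is the opposite of the titles, which were followed.

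Counts on genes ranged from 23584609 to 57430113 per library, and the 40 genes held between 0.177% and 0.873% of them. The labelled tissues carried their markers. The summed level of 7 neuron markers was 5542 to 7217 CPM (counts scaled to library size) in the old brains, that of 5 cardiomyocyte markers 43520 to 53460 CPM in the hearts, and that of 4 proximal tubule markers 3325 to 8944 CPM in the kidneys. CPM values were scaled with edgeR's TMM method, and p-values are from edgeR's quasi-likelihood test, adjusted with Benjamini-Hochberg over all genes tested. In bulk tissue, fewer cells of a type and less RNA per cell cannot be told apart.

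The clearest pattern of the family was its order across tissues, with the highest level in the heart, less in the kidney and least in the brain. On 1 scale for the 34 libraries of old mice, the summed level of the 40 genes in vehicle-treated mice was 9901 ± 427 CPM in the heart (SD, n = 6), 3780 ± 431 CPM in the kidney (SD, n = 5) and 2104 ± 180 CPM in the brain (SD, n = 6). Single hearts ranged from 9166 to 10466 CPM, kidneys from 3299 to 4446 CPM and brains from 1835 to 2365 CPM, so the tissues did not overlap. By mean CPM, 38 of the 40 genes followed the order brain, kidney, heart. Every brain lay below every heart for 38 genes, against 22.3% of all genes tested. Every kidney lay below every heart for 35, against 18.3%, and every brain below every kidney for 28, against 27.7%.

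**Figure D1:**
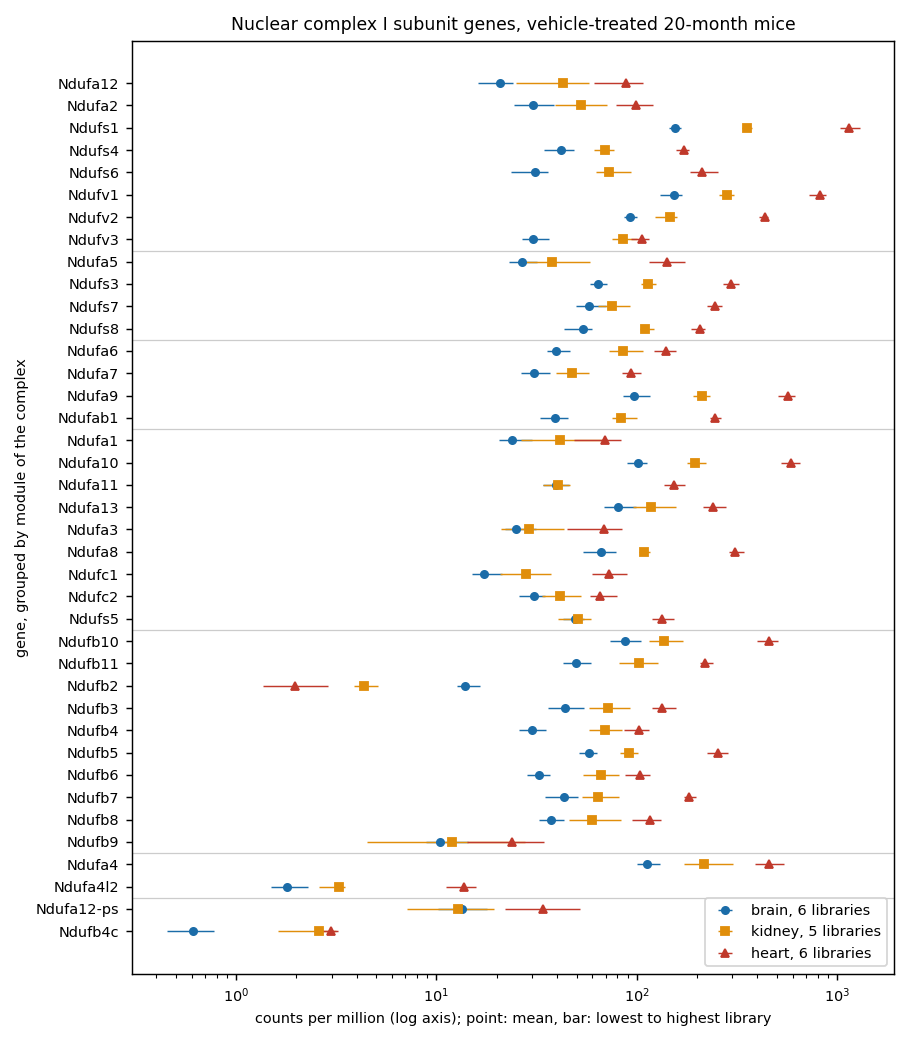
Mean level of 39 of the 40 genes in vehicle-treated 20-month mice, in CPM on a log axis, for brain (6 libraries), kidney (5) and heart (6). Points are means and bars run from the lowest to the highest library; heart points lie to the right for all genes drawn but Ndufb2, whose order is turned.

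Between brain and heart, 39 of the 40 genes were lower in the brain at an adjusted p below 0.05, against 28.9% of all genes tested. The median log2 difference was -2.05 for the family, and 0.44 over all genes. Between kidney and heart, 38 genes were lower in the kidney, against 25.6% of all genes, with a median of -1.34 for the family and 0.015 over all genes, and Ndufb4c did not pass. Between brain and kidney, 34 genes were lower in the brain, against 32.8% of all genes, with a median of -0.76 for the family and 0.24 over all genes. The genes that did not pass there were Ndufa3, Ndufb9, Ndufs5, Ndufa11 and Ndufa12-ps. With DESeq2 size factors in place of TMM, the 3 medians were -1.98, -1.41 and -0.63. Since the labels do not tell which libraries of the tissues share a mouse, these tests treat them as separate mice.

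The largest core subunit stood far apart between heart and brain. Ndufs1, which carries iron-sulphur clusters of the N module, was at 1144 ± 114 CPM in the heart, 354 ± 13.7 CPM in the kidney and 154.4 ± 8.68 CPM in the brain (SD). Its log2 difference between brain and heart was -2.89 (standard error 0.09, edgeR adjusted p = 2.6e-26). Other members with a large brain deficit were Ndufa4l2 (-2.94), Ndufs6 (-2.76) and Ndufab1 (-2.65), the last of which encodes the mitochondrial acyl carrier protein.

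By module, the median log2 difference between brain and heart was -2.16 for the 8 genes of the N module, -2.20 for the 5 of the Q module, -1.58 for the 9 of the proximal membrane arm and -1.72 for the 10 of the distal membrane arm. The smallest deficits in the brain were those of Ndufc2 (-1.08) and Ndufb9 (-1.20), subunits of the membrane arm, and of Ndufa12-ps (-1.34). The 7 complex I subunits encoded in mitochondrial DNA were all lower in the brain than in the heart at an adjusted p below 0.05, with a median of -2.82. Of 17 assembly factors, 15 were lower in the brain and 1 higher, with a median of -0.98. Of 42 nuclear subunits of complexes II to V, 39 were lower and 2 higher, with a median of -2.39.

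Ndufb2, a small subunit of the distal membrane arm, was the 1 member with the opposite order. It was at 13.9 ± 1.39 CPM in the brain, 4.35 ± 0.518 CPM in the kidney and 1.98 ± 0.608 CPM in the heart (SD). The lowest brain, at 12.7 CPM, lay above the highest heart, at 2.87 CPM. Its log2 difference was 2.82 between brain and heart (standard error 0.22, edgeR adjusted p = 6.54e-14) and 1.67 between brain and kidney (standard error 0.22, edgeR adjusted p = 1.6e-08). In the GENCODE M1 annotation, 447 of the 5628 exonic bases of Ndufb2 also lie in exons of other genes, among them Adck2 on the same strand, and reads in bases shared on 1 strand are not assigned to either gene by HTSeq. The part of this in the level of Ndufb2 was not tested.

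Per kilobase of transcript, Ndufa4 and Ndufv1 led in each of the tissues. Ndufa4, a small protein first described with complex I and later found in complex IV, was highest, at 932 ± 103 CPM per kb in the heart, 441 ± 107 in the kidney and 229 ± 21.9 in the brain (SD). Ndufv1, the core subunit that binds NADH, followed with 744 ± 63.2, 256 ± 18.4 and 140 ± 11.9 CPM per kb. Ndufb10, of the distal membrane arm, was at 724 ± 65.7 in the heart, 217 ± 38.8 in the kidney and 138 ± 17.9 in the brain (SD). Among the lowest levels per kb in every tissue were Ndufb2, Ndufb4c and Ndufa4l2, the paralog of Ndufa4 known as a target of hypoxia signalling. The value of Ndufb2 depends on an annotated length of 2413 bases, against a median of 723 for the family. Ndufa4l2 was at 14.3 ± 1.70 CPM per kb in the heart and 1.86 ± 0.296 in the brain (SD).

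In the 20-month brain, the genes of the family lay lower in the Cmpd60-treated mice, by a small amount that no member passed after adjustment. Of the 40 genes, 36 were lower and 4 higher, and the median log2 change was -0.15. Over all genes tested 48.2% were lower, with a median of 0.0072. At an unadjusted p below 0.05, 17 members were lower, against 6.47% of all genes, and 0 were higher. Of the 24438 genes tested, 1788 were higher and 1580 lower at this threshold. At an adjusted p below 0.05, 0 members were called by edgeR, against 0.0205% of all genes, and 3 by DESeq2, against 2.20% of all genes with a DESeq2 adjusted p, which were Ndufa3, Ndufb8 and Ndufs8. CPM here and below are scaled within the tissue or cohort alone, so they are not comparable with the levels between tissues above. The summed level of the family was 2279 ± 143 CPM with Cmpd60 and 2505 ± 206 CPM with vehicle (SD, n = 6 each). The treated brains ran from 2035 to 2462 CPM and the vehicle brains from 2210 to 2820 CPM, so the groups overlapped.

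**Figure D2:**
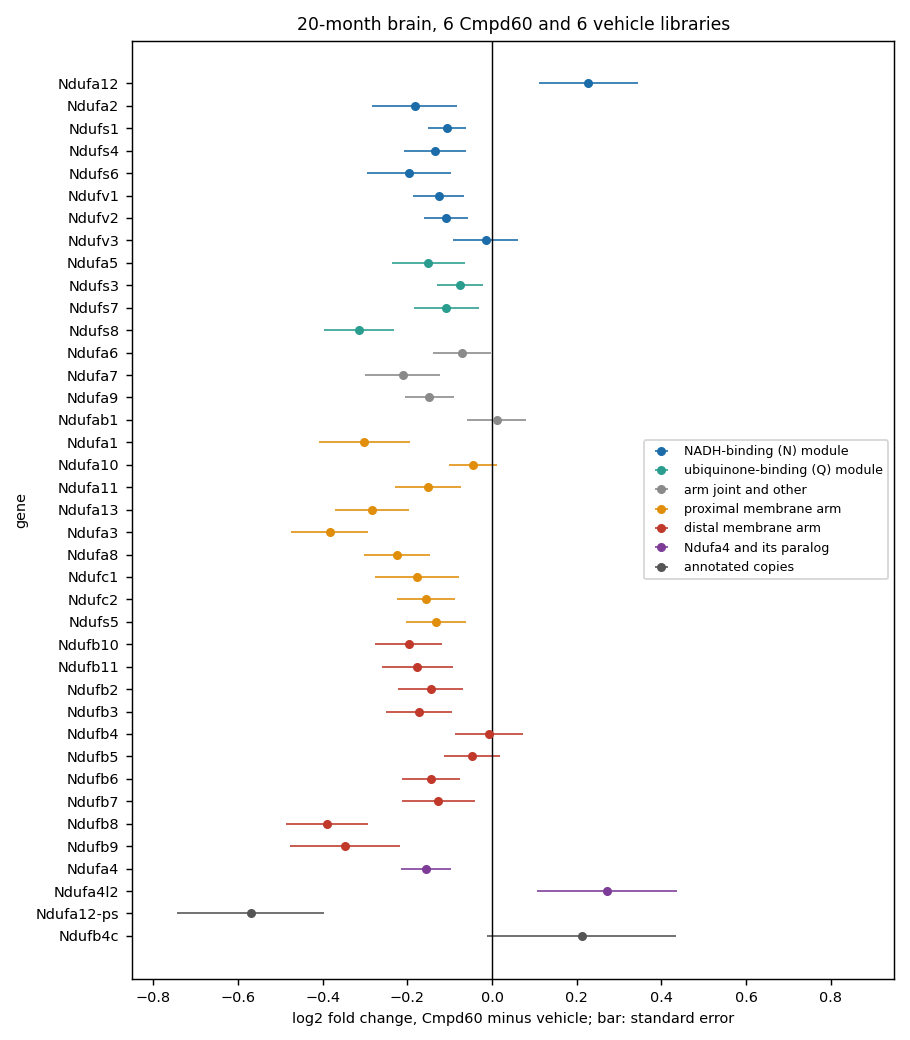
Log2 fold change of 39 of the 40 genes in the 20-month brain, Cmpd60 minus vehicle, with its standard error as a bar and the module of the complex as colour. Most points lie left of 0, with Ndufa12, Ndufa4l2, Ndufb4c and Ndufab1 to the right.

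The leading members by p-value, Ndufa3, Ndufb8 and Ndufs8, belonged to the membrane arm and the Q module. Next came the pseudogene Ndufa12-ps, which belongs to neither. Ndufa3, an accessory subunit of the proximal membrane arm, was at 26.6, 28.4, 27.1, 37.3, 26.3 and 33.0 CPM in the vehicle brains and at 20.3, 24.3, 20.6, 27.1, 23.1 and 21.7 CPM in the treated brains. A single treated brain reached into the vehicle range. The log2 fold change was -0.38 (standard error 0.09, edgeR adjusted p = 0.111, unadjusted p = 0.000516).

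Ndufb8, an accessory subunit of the distal membrane arm whose protein is often used as a marker of assembled complex I, was at 40.3, 43.7, 38.9, 51.4, 42.0 and 51.2 CPM with vehicle and at 25.2, 36.2, 32.4, 41.0, 36.4 and 33.0 CPM with Cmpd60. Again 5 of 6 treated brains lay below every vehicle brain. Its log2 fold change was -0.39 (standard error 0.10, edgeR adjusted p = 0.113). Of its 3146 exonic bases, 134 are shared on the same strand with the second identifier of the same symbol, which had 0 counts in every library. HTSeq assigns reads in such bases to neither identifier, so the 0 counts do not show whether reads of Ndufb8 were lost there.

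Ndufs8, a core subunit of the Q module with iron-sulphur clusters, was at 63.4, 65.9, 52.0, 68.6, 65.5 and 70.7 CPM with vehicle and at 40.6, 47.8, 55.7, 54.1, 57.8 and 54.4 CPM with Cmpd60. The vehicle library 29, at 52.0 CPM, lay within the treated range, and the other vehicle brains were above all treated ones. The log2 fold change was -0.31 (standard error 0.08, edgeR adjusted p = 0.129). Without library 29, Ndufa3, Ndufb8 and Ndufs8 passed the adjustment, with adjusted p-values of 0.0438, 0.0439 and 0.028, and 26 members were at an unadjusted p below 0.05. Without the treated library 33, which had the lowest summed level, 11 members were. The share of all genes in these refits is not given, so the counts cannot be set against it.

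**Figure D3:**
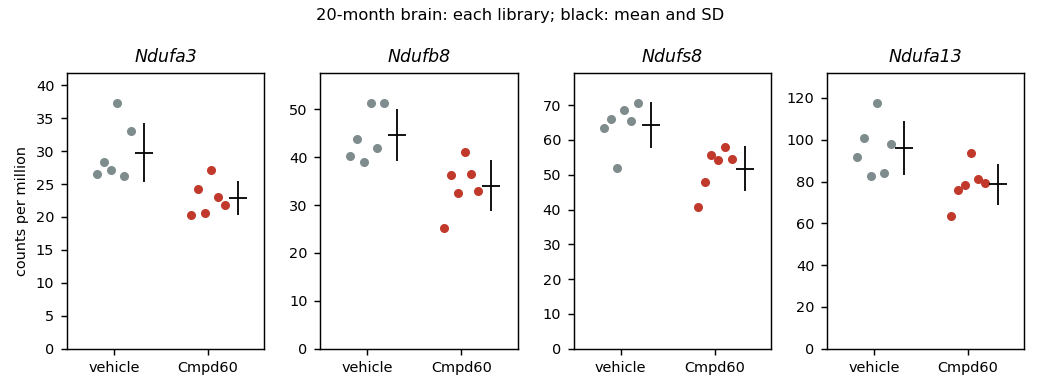
Level of Ndufa3, Ndufb8, Ndufs8 and Ndufa13 in each 20-month brain library, in CPM, vehicle in grey and Cmpd60 in red, with the mean and SD of each group in black. In each panel the treated brains sit lower and the groups overlap, as for Ndufa3, at 20.3 to 27.1 with Cmpd60 and 26.3 to 37.3 with vehicle.

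By module, all 9 genes of the proximal membrane arm were lower in the treated brains, 5 of them at an unadjusted p below 0.05, with a median of -0.18. The leading ones beside Ndufa3 were Ndufa13, also known as GRIM-19, at 78.7 ± 9.71 against 95.8 ± 12.9 CPM (SD), that is, a log2 change of -0.28, Ndufa1 (-0.30) and Ndufa8 (-0.22). All 10 measured genes of the distal membrane arm were lower too, 6 at an unadjusted p below 0.05, with a median of -0.16. For the Q module, 5 of 5 were lower with 1 at an unadjusted p below 0.05, and for the N module 7 of 8 with 1, which was Ndufs1, at 171 ± 4.47 against 184 ± 9.78 CPM (SD). The 7 core subunits were all lower, with a median of -0.11. Ndufab1, at 0.011 (standard error 0.07), and Ndufb4, at -0.0079 (standard error 0.08), did not differ beyond their errors.

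For no member were the groups free of overlap in the lower direction, and 0.430% of all genes were. Ndufa12, an accessory subunit of the N module, was at 28.97 ± 5.90 CPM with Cmpd60 and 24.8 ± 3.21 CPM with vehicle (SD), whereas its pseudogene Ndufa12-ps was at 10.8 ± 3.14 against 15.9 ± 3.55 CPM. Their log2 fold changes were 0.23 (standard error 0.12) and -0.57 (standard error 0.17). Summed over both identifiers, the level was 39.7 ± 4.24 CPM with Cmpd60 and 40.7 ± 6.42 CPM with vehicle (SD). The sum of the pair thus differed by less than the spread between mice.

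Members are short transcripts. The median transcript of the 40 genes had 723 bases, and that of all genes with a length 1956. Among all genes of at least 10 CPM in the old brain, 62.8% of those below 1000 bases were lower with Cmpd60, at a median log2 change of -0.033, and 47.9% of those of 4000 bases and more. In the same class below 1000 bases, 25 of 27 members were lower, with a median of -0.16, and among members of 2000 bases and more 4 of 4 were lower, with a median of -0.13. Cytosolic ribosomal protein genes, also short, were lower for 41 of 47, with a median of -0.060. Markers of cerebellar granule neurons were lower for 3 of 3, each at an unadjusted p below 0.05, with a summed level of 163 to 375 CPM in treated and 300 to 528 CPM in vehicle brains. Of 7 neuron markers, 4 were higher and 2 lower at an unadjusted p below 0.05, with a median of 0.13 and a summed level of 5863 to 7217 against 5542 to 6304 CPM. Of 4 endothelial markers, 3 were higher, 2 at an unadjusted p below 0.05, with a summed level of 180 to 256 against 159 to 186 CPM. No marker of these lists was at 0, and the part of transcript length or of the cell types in the result was not tested.

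Of the 42 nuclear subunits of complexes II to V measured in the old brain, 42 were lower with Cmpd60, 18 at an unadjusted p below 0.05, with a median of -0.12. Atp5mg, a membrane subunit of ATP synthase, was at 59.4 ± 4.76 against 70.8 ± 5.74 CPM (SD), that is, a log2 change of -0.25 (edgeR adjusted p = 0.113). Of the 7 complex I subunits encoded in mitochondrial DNA, 4 were higher, 3 of them at an unadjusted p below 0.05, and 3 were lower, with a median of 0.14. mt-Nd4 was at 2232 ± 174 CPM with Cmpd60 and 1841 ± 220 CPM with vehicle (SD), that is, a log2 change of 0.28 (standard error 0.07, edgeR adjusted p = 0.131), and mt-Nd5 at 3900 ± 277 against 3388 ± 296 CPM (SD), that is, a log2 change of 0.20 (edgeR adjusted p = 0.188). The lower ones were mt-Nd6 (-0.12), mt-Nd3 (-0.034) and mt-Nd4l (-0.50), the last 2 of them at a few CPM or less. When the genes of mitochondrial DNA were left out before scaling, the median of the 40 nuclear genes was again -0.15.

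Assembly factors were split, with 9 of 17 lower and 8 higher and a median of -0.060. Among 12 regulators of mitochondrial biogenesis, 7 were lower and 5 higher. Esrra, the oestrogen-related receptor alpha, was at 72.2 ± 5.90 against 84.8 ± 11.3 CPM (SD), that is, a log2 change of -0.23 (edgeR adjusted p = 0.215). Tfam, which packages mitochondrial DNA, was at 36.9 ± 1.56 against 40.6 ± 2.64 CPM, that is, a log2 change of -0.14 (edgeR adjusted p = 0.276).

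The promoters of the 3 genes with the smallest p-values in the old brain and of Ndufb2, the member with the turned tissue order, are shown so that the letters before the start sites of these genes can be read beside their values. Each is the 250 bases before the RefSeq transcription start on the strand of the gene, build GRCm38.p6, written 5′ to 3′. Ndufa3 lies at chr7:3617123-3617372 (+), Ndufb8 at chr19:44555443-44555692 (-), Ndufs8 at chr19:3912775-3913024 (-) and Ndufb2 at chr6:39592315-39592564 (+). Capitals mark matches, on either strand, to the cores GCGCATGC (NRF1), CCGGAAG (ETS factors such as GABP), AAGATGG (YY1), AAGGTCA (oestrogen-related receptors), GGGCGG (SP factors) and CCAAT.
Ndufa3: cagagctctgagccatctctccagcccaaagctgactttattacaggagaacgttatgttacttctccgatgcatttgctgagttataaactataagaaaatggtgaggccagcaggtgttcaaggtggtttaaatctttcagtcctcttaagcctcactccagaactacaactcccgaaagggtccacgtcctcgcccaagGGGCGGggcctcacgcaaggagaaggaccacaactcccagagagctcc
Ndufb8: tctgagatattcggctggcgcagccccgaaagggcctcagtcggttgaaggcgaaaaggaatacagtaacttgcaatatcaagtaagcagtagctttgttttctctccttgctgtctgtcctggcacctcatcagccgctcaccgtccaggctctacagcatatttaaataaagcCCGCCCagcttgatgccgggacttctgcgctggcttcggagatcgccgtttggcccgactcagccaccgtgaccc
Ndufs8: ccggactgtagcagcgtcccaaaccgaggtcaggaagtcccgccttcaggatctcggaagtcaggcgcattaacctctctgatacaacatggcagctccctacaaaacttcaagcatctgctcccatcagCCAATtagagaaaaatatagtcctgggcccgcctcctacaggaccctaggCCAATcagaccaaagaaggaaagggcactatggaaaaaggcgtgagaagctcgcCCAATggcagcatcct
Ndufb2: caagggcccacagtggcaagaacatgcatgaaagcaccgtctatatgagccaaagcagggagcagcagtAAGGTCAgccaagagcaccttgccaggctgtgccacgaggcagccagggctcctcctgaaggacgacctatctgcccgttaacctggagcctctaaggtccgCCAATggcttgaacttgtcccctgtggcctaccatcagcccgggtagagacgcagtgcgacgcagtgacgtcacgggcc

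Ndufa3 and Ndufb8 each held 1 match to the SP core and none to the others, Ndufs8 held 3 CCAAT cores, and Ndufb2 held 1 oestrogen-related receptor core and 1 CCAAT core. Windows were found for 33 of the 40 members. The NRF1 core stood in 3 of them (Ndufa6, Ndufa8 and Ndufa11), 9.09%, against 2.26% of 32851 windows of the same length over all promoters. The ETS core stood in 3 (Ndufb6, Ndufb7 and Ndufs3), against 6.91% of all windows. The oestrogen-related receptor core stood in 3 (Ndufb2, Ndufb4 and Ndufs5), against 4.08%, and the YY1 core in 0, against 4.49%. The SP core stood in 14 members, 42.4%, against 32.7% of all windows, and CCAAT in 10, 30.3%, against 33.8%. None of these cores contains another, and a match describes only the letters of the window.

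In the 20-month heart, the family showed no common direction. Of the 40 genes, the treated level was below the vehicle level for 20 and above it for 20, and the median log2 change was 0.0076. At an adjusted p below 0.05, 0 members were called by edgeR, against 1.18% of all genes, and 1 by DESeq2, against 5.28%. At an unadjusted p below 0.05, 3 members were lower, among them the core subunits Ndufs1 and Ndufs3. This count is near the share of all genes, 6.22%, and tells nothing particular to the family. The summed level was 7640 ± 568 CPM with Cmpd60 (SD, n = 5) and 7870 ± 289 CPM with vehicle (SD, n = 6).

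Ndufs3, a core subunit of the Q module, was at 214 ± 8.32 against 235 ± 12.6 CPM (SD), that is, a log2 change of -0.14 (edgeR adjusted p = 0.27). Ndufs1 was at 824 ± 43.4 against 908 ± 72.1 CPM (SD), that is, a log2 change of -0.14 (edgeR adjusted p = 0.344).

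Of the 7 core subunits, 6 were lower in the treated hearts, with a median of -0.095, and the exception was Ndufv1 (0.052, standard error 0.06). Of the genes that led in the brain, Ndufa3 had a log2 change of 0.14 here, Ndufb8 of 0.18 and Ndufs8 of -0.0077, none at an unadjusted p below 0.05. Treated library 68 was the highest for Ndufa3, at 101 CPM against 41.7 to 60.7 CPM in the other treated hearts, and for Ndufb8, at 159 against 74.7 to 114 CPM. Without it, the median of the family was -0.082, and 2 members were at an unadjusted p below 0.05. Without treated library 72, 5 members were.

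Assembly factors were lower for 13 of 17 in the treated hearts, 5 at an unadjusted p below 0.05, with a median of -0.12. Ecsit, needed for assembly of the membrane arm, was at 61.1 ± 3.28 against 72.3 ± 2.95 CPM (SD), that is, a log2 change of -0.24 (standard error 0.06, edgeR adjusted p = 0.0576). Nubpl, which delivers iron-sulphur clusters to complex I, was at 10.01 ± 1.29 against 12.7 ± 1.67 CPM (SD), that is, a log2 change of -0.35 (edgeR adjusted p = 0.162). Of the 42 nuclear subunits of complexes II to V, 25 were lower, 5 of them at an unadjusted p below 0.05, and 17 higher, with a median of -0.030 and 0 at an adjusted p below 0.05. The smallest p-values among them were those of the catalytic subunits of complex II, Sdhb, at a log2 fold change of -0.22 (edgeR adjusted p = 0.113), and Sdha, at -0.20 (edgeR adjusted p = 0.136). None of the 7 subunits encoded in mitochondrial DNA was at an unadjusted p below 0.05.

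In the 20-month kidney, the treated level was below the vehicle level for 22 genes and above it for 18, and the median log2 change was -0.019. By edgeR's adjusted p, 0 members were called, against 0.300% of all genes, and DESeq2 called 0 as well, against 2.70%. At an unadjusted p below 0.05, 1 member was lower, against 5.63% of all genes, and 1 was higher, against 1181 of the 20698 genes tested. These counts of 1 tell nothing particular to the family. The summed level was 3903 ± 444 CPM with Cmpd60 (SD, n = 6) and 3997 ± 453 CPM with vehicle (SD, n = 5).

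The higher member was Ndufa4l2, at 2.74, 3.64, 3.50, 3.67 and 3.71 CPM in the vehicle kidneys and at 6.31, 5.88, 3.73, 3.52, 5.35 and 12.9 CPM in the treated kidneys. Of the treated kidneys, 5 of 6 lay above every vehicle kidney. The log2 fold change was 0.86 (standard error 0.29, edgeR adjusted p = 0.263), and 0.53 without treated library 55 (edgeR adjusted p = 0.317). Its level was low, at a few CPM.

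The lower member was Ndufa12, at 34.3, 50.7, 61.1, 26.5 and 52.6 CPM with vehicle and at 43.5, 36.2, 22.8, 22.6, 24.9 and 25.6 CPM with Cmpd60, a log2 fold change of -0.62 (standard error 0.22, edgeR adjusted p = 0.28). Summed with Ndufa12-ps it was at 47 ± 12.4 CPM with Cmpd60 and 58.5 ± 14.9 CPM with vehicle (SD), within the spread between mice. Among the core subunits, Ndufs1 was at 324 ± 54.3 against 374 ± 14.3 CPM (SD), and the other 6 ranged from -0.10 for Ndufs8 to 0.093 for Ndufv2. The treated libraries 52 and 55 stood at the ends of the family, with summed levels of 3134 and 4382 CPM. Without library 52 the median was 0.087, and without library 55 it was -0.094. Proximal tubule markers also spread more widely in treated kidneys, from 3325 to 8944 CPM, than in vehicle kidneys, from 6769 to 8363 CPM, and their part in the result was not tested.

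**Figure D4:**
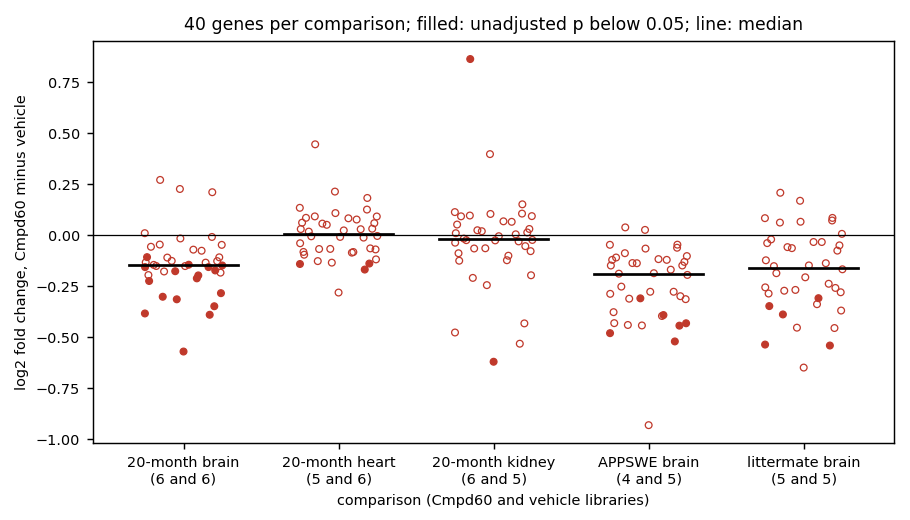
Log2 fold change, Cmpd60 minus vehicle, of the 40 genes in each of 5 comparisons, with filled points at an unadjusted p below 0.05 and a line at the median. The medians are -0.15 in the 20-month brain, 0.0076 in the heart, -0.019 in the kidney, -0.19 in the APPSWE brain and -0.16 in the littermate brain.

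The Cmpd60 effect of brain and heart was compared directly in a fit of all 34 libraries of old mice. At an adjusted p below 0.05, 0 members differed between the effects by edgeR, against 0.0517% of all genes, and 0 by DESeq2, against 0.943%. At an unadjusted p below 0.05, 2 members had a lower effect in the brain, which is near the share of all genes, 4.30%. The 2 members were Ndufs8, with a difference of -0.29 (standard error 0.11, edgeR adjusted p = 0.408), and Ndufb8, with -0.56 (standard error 0.25, edgeR adjusted p = 0.506). Between brain and kidney, 3 members had a lower effect in the brain at that threshold, against 3.81% of all genes, which were Ndufa8, Ndufa12-ps and Ndufb10. The 1 member with a higher effect in the brain was Ndufa12, by 0.88 (standard error 0.27, edgeR adjusted p = 0.234), against 1676 of the 27105 genes tested. After adjustment 0 members differed there by edgeR, against 0.0885% of all genes, and 0 by DESeq2, against 1.48%. These differences between tissues share the libraries of the comparisons above, and the fit treats tissues that largely share mice as separate mice. The lower level in the brain was therefore not shown to differ from the effect in heart or kidney for any member after adjustment.

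In the brains of the 6 to 7 month cohort, the family again lay lower with Cmpd60. In APPSWE mice 38 of 40 genes were lower, at a median log2 change of -0.19, and over all genes 45.8% were lower, with a median of 0.031. In littermates 32 of 40 were lower, with a median of -0.16, and over all genes 47.1% were. At an unadjusted p below 0.05, 6 members were lower in APPSWE mice, against 2.41% of all genes, and 5 in littermates, against 1.23%. At the same threshold 0 members were higher in either genotype. Of the 23194 genes tested, 1637 were higher and 558 lower in APPSWE mice, and 567 higher and 285 lower in littermates. At an adjusted p below 0.05, 0 members were called in either genotype by edgeR, which called 0 of the 23194 genes tested (0%) in both. DESeq2 called 0 members as well, against 0.0701% of all genes in APPSWE mice and 0.0175% in littermates, so the counts of 0 tell nothing particular to the family. The smallest adjusted p-values were 0.444 and 0.999. The count of 6 in APPSWE mice was 14 without treated library 141, 2 without treated library 143 or 148, and 3 without treated library 147 or vehicle library 140 or s146. The count of 5 in littermates was 8 without vehicle library s149, and 3 without treated library 152 or 153 or vehicle library s154 or s155. For these refits too, the share of all genes is not given.

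Summed over the family, the level was 2056 ± 288 CPM with Cmpd60 (SD, n = 4) and 2372 ± 233 CPM with vehicle (SD, n = 5) in APPSWE mice. In littermates it was 2048 ± 144.5 CPM with Cmpd60 and 2227 ± 88.2 CPM with vehicle (SD, n = 5 each). Library s139 was at 2227 CPM, inside both the vehicle and the treated range of APPSWE mice. Treated APPSWE library 141, at 2462 CPM, was above the 3 other treated mice, at 1809 to 2044 CPM.

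**Figure D5:**
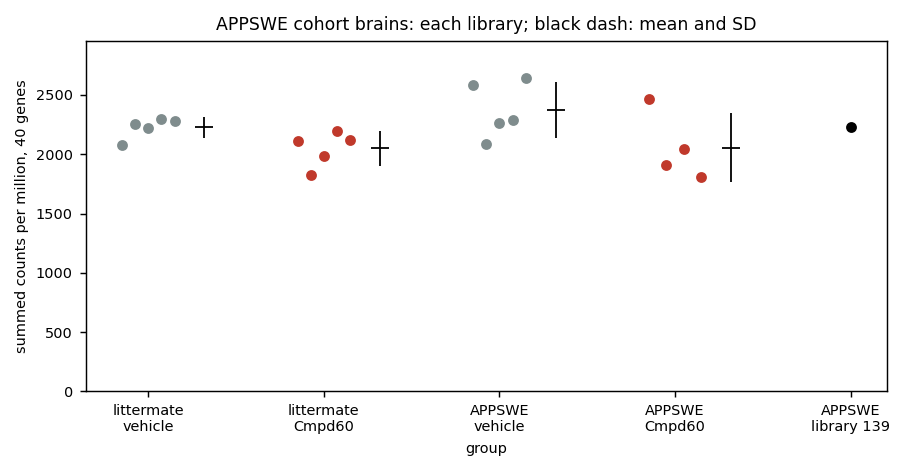
Summed level of the 40 genes in each brain library of the APPSWE cohort, in CPM, vehicle in grey, Cmpd60 in red and library s139 in black, with the mean and SD of each group beside the points. In littermates the treated mice sit between 1828 and 2198 and the vehicle mice between 2079 and 2300.

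Ndufb10, an accessory subunit of the distal membrane arm, had the smallest p-value in APPSWE mice. It was at 99.4, 90.6, 107, 109 and 127 CPM with vehicle and at 95.6, 79.5, 81.7 and 68.5 CPM with Cmpd60, with library s139 at 101 CPM. In littermates it was at 87.2, 106, 95.5, 115 and 91.3 CPM with vehicle and at 54.1, 69.2, 80.1, 90.4 and 84.8 CPM with Cmpd60. The treated mice were lower in both genotypes, with 3 of 4 and 4 of 5 below every vehicle mouse of their genotype. The log2 fold changes were -0.39 (standard error 0.14, edgeR adjusted p = 0.444) and -0.39 (standard error 0.13, edgeR adjusted p = 0.999). With library s139 among the vehicle mice the APPSWE value was -0.38, and with it among the treated mice -0.32.

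Ndufs5, an accessory subunit of the proximal membrane arm on the intermembrane side, was at 40 ± 10.6 against 54.3 ± 10.02 CPM (SD) in APPSWE mice and at 38.2 ± 4.69 against 55.6 ± 12.4 CPM (SD) in littermates. Its log2 fold changes were -0.44 (edgeR adjusted p = 0.461) and -0.54 (edgeR adjusted p = 0.999). Ndufa13 was at 61.2 ± 18.7 against 85.2 ± 33.5 CPM (SD) in APPSWE mice, where vehicle library 140 stood at 144.6 CPM and the others between 64.9 and 77.0 CPM. Ndufc2 (-0.52), Ndufs8 (-0.31) and Ndufb6 (-0.43) were the other members at an unadjusted p below 0.05 in APPSWE mice. In littermates these were Ndufv2, a core subunit of the N module, at 93.3 ± 20.2 against 116 ± 9.35 CPM (SD), Ndufa12 (-0.54) and Ndufb7 (-0.35).

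The 17 members at an unadjusted p below 0.05 in the 20-month brain were followed into the other mice. All 17 were lower with Cmpd60 in APPSWE brains, 5 of them at an unadjusted p below 0.05, with a median of -0.30. Of the other 23 members 21 were lower, 1 at an unadjusted p below 0.05, with a median of -0.15. In littermate brains, 13 of the 17 were lower, 1 at an unadjusted p below 0.05, with a median of -0.19. Of the other 23, 19 were lower there, 4 at an unadjusted p below 0.05, with a median of -0.14. In heart and kidney, 10 and 11 of the 17 were lower. By the number of old mice the study treated, these tissues largely come from the mice of the old brains. Among all genes below 1000 bases and of at least 10 CPM, 64.3% were lower in treated APPSWE brains and 60.3% in treated littermate brains. Of those of 4000 bases and more, 34.4% and 41.2% were lower. At that level, members below 1000 bases were lower for 26 of 26 in APPSWE mice and 21 of 26 in littermates. Members of 2000 bases and more were lower for 3 of 4 (median -0.12) and 1 of 4 (median 0.035). Of the members between these lengths, 7 of 7 were lower in both genotypes. The part of transcript length in the result was not tested. The number of genes detected also varied widely in the cohort, from 15044 to 24821 per library, and differed between the arms. Its median was 22604.5 in treated against 18518 in vehicle APPSWE brains, and 23014 against 19669 in littermate brains. Treated APPSWE library 141, with the highest summed level of its group, had 16402, and treated library 148, with the lowest, had 23402. With genes detected as a covariate the medians of the family were -0.14 and -0.11, against -0.19 and -0.16 without it. Since genes detected differed between the arms, that fit cannot separate them from Cmpd60, and their part in the result was not tested.

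Among the mitochondrially encoded subunits in APPSWE brains, mt-Nd5 was at 2954 ± 628 CPM with Cmpd60 and 2068 ± 380 CPM with vehicle (SD), that is, a log2 change of 0.51 (standard error 0.14, edgeR adjusted p = 0.444), and 6 of the 7 were higher, 3 at an unadjusted p below 0.05. In littermates 6 of 7 were higher, 0 of them at an unadjusted p below 0.05. Cytosolic ribosomal protein genes were lower for 42 of 46 in APPSWE mice and 39 of 46 in littermates. Choroid plexus markers were lower for 4 of 4 in treated APPSWE mice, with a summed level of 326 to 538 CPM against 365 to 1502 CPM. Oligodendrocyte markers were lower for 5 of 5, 2 at an unadjusted p below 0.05, with a median of -0.17 and a summed level of 4765 to 6114 against 5532 to 6143 CPM. Microglia markers were higher for 5 of 5, 1 at an unadjusted p below 0.05, with a median of 0.19 and a summed level of 141 to 182 against 133 to 156 CPM. No marker of these lists was at 0, and their part in the result was not tested.

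In vehicle-treated mice 25 of 40 genes were higher in APPSWE brains than in littermates, with a median log2 difference of 0.11. This median was 0.021 without vehicle library 140 of the APPSWE mice and 0.16 without their vehicle library s142. At an unadjusted p below 0.05, 2 members were higher, against 2.57% of all genes. At the same threshold 0 members were lower, against 1416 of the 23194 genes tested. Ndufs1 was at 215, 190, 199, 192 and 196 CPM in APPSWE mice and at 179, 165, 181, 177 and 141 CPM in littermates, so the groups did not overlap, as for 0.276% of all genes in the higher direction. Its log2 difference was 0.24 (standard error 0.08, edgeR adjusted p = 0.509), and library s139, at 167 CPM, lay in the littermate range. Ndufb6, an accessory subunit of the distal membrane arm, was at 42.0 ± 8.24 against 31.4 ± 7.18 CPM (SD), with overlap. In Cmpd60-treated mice 0 members were at an unadjusted p below 0.05, against 200 lower and 110 higher of the 23194 genes tested. By direction, 22 members were higher and 18 lower, with a median of 0.015. That median was -0.12 without treated APPSWE library 141 and 0.096 without treated APPSWE library 148. For the interaction of genotype and Cmpd60, 0 members were at an unadjusted p below 0.05, against 365 lower and 816 higher of the 23194 genes tested. By direction, 26 members had a lower effect in APPSWE mice, with a median of -0.064. Without library 141 this median was -0.19, and without library 148 it was 0.030, in the opposite direction. At an adjusted p below 0.05, edgeR called 0 members in these 3 tests, against 0.00862%, 0% and 0% of all genes, and DESeq2 called 0, against 0.0957%, 0% and 0.0175%.

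The spread between mice differed between members with short and with long transcripts. For the 29 members below 1000 bases, the median coefficient of variation within a group ran from 10.9% in vehicle hearts to 28.1% in treated APPSWE brains. For the 11 longer members it ran from 5.99% in treated hearts to 15.2% in treated kidneys. In each of the 10 groups the shorter members varied more. Among the long members is Ndufs1, at a mean of 184 CPM in vehicle old brains, and among the short ones Ndufa3, at 29.8 CPM. The length classes were not matched for level, and the part of level or of length in the spread was not tested.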

How the data were processed

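RNA of 54 mouse libraries was sequenced by the authors after selection of mRNA on oligo-dT beads, with a directional kit. Per the labels and the study's methods, reads were trimmed with Trimmomatic 0.32, aligned with HISAT2 2.1.0 and counted on Ensembl genes with HTSeq 0.11.0, with strand taken into account. The genome build is not given in the sources used here. The authors deposited raw counts for 54232 genes and 5 summary lines, which held 15.4% to 22.1% of reads and were left out.

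Groups follow titles and source names. Genes with over 2 counts in 3 or more fitted libraries entered quasi-likelihood tests (edgeR 4.0.16) in R 4.3.3, after TMM scaling, each old tissue alone, the cohort of 19 libraries together and the 34 old libraries together. Library sizes set the precision: 3 counts are 0.0522 to 0.127 CPM, and such floors cover counting error only. Values per kilobase use the median coding transcript of GENCODE M1. Symbols were matched for 32651 identifiers, 2667 of them updated. Promoters and gene positions are from RefSeq, GRCm38.p6.

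Alternatives were DESeq2 1.42.0, limma-voom (limma 3.58.1), DESeq2 size factors in edgeR, other filters, mitochondrial genes left out, thinned counts, each library left out, library s139 in either arm, genes detected as a covariate and only the 2 groups compared. Scripts were tested on simulated counts. The members and lists were chosen with earlier results of these data known. Named genes are the core subunits, a fixed set of 6 others, and per comparison up to 10 members in each direction by fold at an adjusted p below 0.05, or the 4 with the smallest p where none passed; between tissues, the 5 largest differences in each direction; members with a library that stands apart; and per tissue, the 3 highest and lowest per kilobase; and of other lists the mitochondrially encoded subunits and up to 2 genes with the smallest p where none passed. Any other member in the text was named after its values were seen. The values of 1 member, which stays in the counts, sums and medians, are not reported here.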

Additional observations from a re-analysis of the deposited data

Results flagged for a closer look

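For 20 of the genes and for their summed level, 210 sets of group values were examined with Dixon's ratio, and 13 held a library that stood apart from the rest of its group. Chance gives about 1 in 20. Values are in CPM.

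In the old mice, treated kidney library 55 was the highest for Ndufa4l2, at 12.9 against 3.52 to 6.31 in the others, and for Ndufa12-ps, at 37.1 against 7.00 to 18.2. Vehicle kidney library 45 was the lowest for Ndufa4l2, at 2.74 against 3.50 to 3.71. In the heart, vehicle library 64 was the highest for Ndufab1, at 208 against 190 to 194, and treated library 72 for Ndufs8, at 183 against 155.1 to 161.3. In the brain, treated library 33 was the lowest for Ndufb10, at 72.9 against 91.3 to 97.7, and vehicle library 32 the highest for Ndufb2, at 19.6 against 15.1 to 16.6.

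In the APPSWE cohort, treated littermate library 152 was the highest for Ndufa4, at 146.3 against 79.5 to 97.9, for Ndufa4l2, at 4.04 against 1.5 to 2.00, and for Ndufb2, at 23.6 against 13.1 to 16.1. Vehicle littermate library s155 was the lowest for Ndufa8, at 50.8 against 84.0 to 93.5. Among APPSWE mice, vehicle library 140 was the highest for Ndufa13, at 144.6 against 64.9 to 77.0, and treated library 141 for Ndufa3, at 36.9 against 8.77 to 12.7.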

How the results depend on the processing

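Between tissues, 40 members were called for brain and heart, 37 to 39 for kidney and heart and 34 to 35 for brain and kidney when each library was left out, and 40, 39 and 34 to 35 under the other alternatives run. In the old brain, 0 members were called, 3 with DESeq2 and 1 without a filter on low counts (Ndufa3, adjusted p = 0.0497), and 0 to 3 with each library left out, while members at an unadjusted p below 0.05 ran from 11 to 26 around 17. In the heart, DESeq2 called 1, and leaving out libraries gave 2 to 5 members at an unadjusted p below 0.05, and in the kidney 2 to 3. In APPSWE brains this count, 6, ran from 2 to 14, the highest without treated library 141, and was 1 with genes detected as a covariate. In littermate brains, 5, it ran from 3 to 8, and was 3 with limma-voom and 3 with genes detected as a covariate. The share of all genes is not given for fits with a library left out, so these counts cannot be set against it. The cause of these changes was not tested. The family median stayed below 0 in each brain comparison of Cmpd60 and vehicle when any library was left out (-0.18 to -0.10 in old brains, -0.40 to -0.13 in APPSWE and -0.21 to -0.11 in littermate brains), and took both signs in heart and kidney. No paired analysis was possible because the groups compared share no replicate numbers.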
